A study of Mus musculus with 2 samples.

Results

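The epidermal growth factor (EGF) family and its ErbB receptors were followed in cultured astrocytes of wild type (WT) and β-arrestin 1 knockout (β-arr1 KO) mice. The cells came from the dentate gyrus (DG), a part of the hippocampus in which neurons are born in the adult. The 10 genes were chosen by symbol, 4 receptors (Egfr, Erbb2, Erbb3 and Erbb4) and 6 ligands (Hbegf, Tgfa, Areg, Ereg, Btc and Nrg1), of 16302 genes in the joined tables. Each had 1 row in both tables. Both groups were labelled C57BL/6, the KO animals lacked β-arr1 in every tissue, and per the study's methods the cells were adult DG cells grown in serum medium and shaken to remove proliferating cells, neurons and progenitors of oligodendrocytes. No treatment was named for either group. A single library of pooled cDNA was sequenced per genotype, so no value below has a replicate error, no test between genotypes was possible and no p-value is given.

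EGF family ligands are made as membrane proteins and are released by metalloproteases, chiefly of the ADAM family. They bind the outer part of ErbB receptors, which pair, phosphorylate each other and recruit adaptors that switch on the Ras and ERK cascade and the PI3 kinase pathway. EGFR binds EGF, TGFα, amphiregulin, epiregulin, betacellulin and HB-EGF, and ErbB3 and ErbB4 bind neuregulins. ErbB4 also binds HB-EGF, betacellulin and epiregulin. ErbB2 has no ligand of its own and serves as a partner, and ErbB3 has little kinase activity. In the hippocampal niche EGF is known as a mitogen of neural precursors, and EGFR signalling is known to act on astrocytes in culture. β-arrestins bind activated G-protein coupled receptors, some of which cause the release of HB-EGF and thereby activate EGFR.

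Levels are given in FPKM (fragments scaled to the length of the transcript and to the mapped fragments of the library), as deposited, so that genes of different length can be compared. In WT 15417 rows were listed (median, 7.04 FPKM), and in KO 15457 rows (median, 7.16 FPKM). The smallest values showed that about 9550000 mapped fragments in WT and 9840000 in KO lay behind them. The 95% intervals given below were computed from the fragments so estimated. They hold counting error alone, so that an interval that leaves out 1 says nothing of differences between cultures or mice. Arrb1, the gene of β-arr1, was at 7.62 FPKM (WT) and 2.72 FPKM (KO), lower in the library labelled KO with a ratio of 0.358. The astrocyte marker Gfap was at 188.5 FPKM (WT) and 191.8 FPKM (KO). All 10 astrocyte markers were listed in both tables, and 4 of them had a KO/WT ratio above 3/2. Of Y chromosome genes, 4 (Ddx3y, Eif2s3y, Kdm5d and Uty) were listed in KO only, while Xist, an RNA of female cells, was at 39.4 FPKM (WT) and 29.7 FPKM (KO). Both libraries thus held female RNA, and a part of male RNA in KO cannot be told apart from genotype.

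Egfr mRNA was lower in KO astrocytes, and the mRNA of HB-EGF, a ligand of EGFR, was higher. Egfr was at 24.4 FPKM (WT) and 14.5 FPKM (KO), with a KO/WT ratio of 0.593 (interval, 0.555 to 0.634). Hbegf was at 98.5 FPKM (WT) and 149 FPKM (KO), with a KO/WT ratio of 1.51 (interval, 1.43 to 1.60). A gene counted as changed when its ratio of KO vs. WT was above 3/2 or below 2/3, the limits used by the study, and when it reached 1 FPKM in at least one library. Of the 10 genes, 7 reached this level, all of them in both libraries, and 1 of them was above and 1 below the limits. Among all 12646 genes at this level, 17.8% were past the limits, 9.56% above and 8.28% below. This share includes 475 genes listed for 1 library only, all of which counted as changed. With 1 FPKM required in both libraries, as in all 7 members, it was 11.8%. The counts in the family, 1 of 7 each way, are to be read beside these shares. Hbegf stood just outside the upper limit and Tgfa, at 1.42, just inside it. After the median ratio of all genes was set to 1, Hbegf was at 1.495 and within the limits, while Egfr stayed below 2/3 at 0.586.

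**Figure D1:**
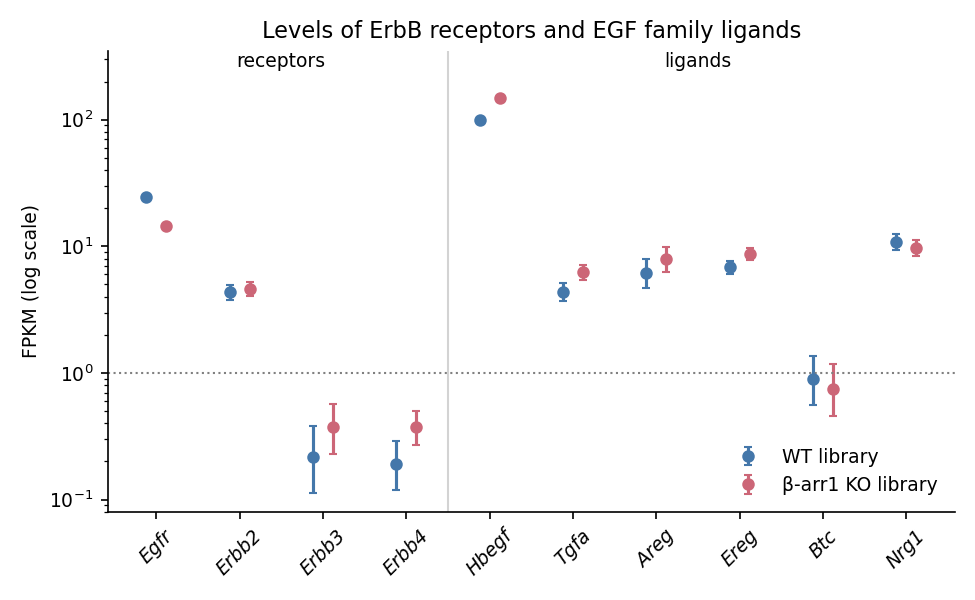
Level of the 4 receptor and 6 ligand genes in the WT library (blue) and the β-arr1 KO library (red), in FPKM on a log scale. Bars are 95% counting intervals, 1 library per point, and the dotted line marks 1 FPKM. Egfr sits lower in KO (14.5 against 24.4 FPKM) and Hbegf higher (149 against 98.5 FPKM).

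The order of the levels was nearly the same in both libraries. Hbegf was highest, followed by Egfr, Nrg1, Ereg, Areg, Tgfa, Erbb2 and Btc, and Erbb3 and Erbb4 came last. Hbegf, at rank 605 in WT and rank 348 in KO, was higher than 96.1% and 97.7% of all listed genes. Egfr stood at rank 3043 in WT and at rank 4969 in KO, above 80.3% and 67.9% of them. Several neighbours in this order could not be separated by counting error, namely Ereg and Areg, Areg and Tgfa, and Erbb3 and Erbb4 in both libraries. The intervals of Tgfa and Erbb2 overlapped in WT and not in KO, and those of Nrg1 and Ereg in KO and not in WT. In KO the intervals of Btc and Erbb4 overlapped as well. Egfr made up 83.8% of the summed FPKM of the 4 receptors in WT and 73.0% in KO. Hbegf made up 77.2% of the summed FPKM of the 6 ligands in WT and 81.7% in KO. The level of Hbegf was 4.03 times that of Egfr in WT and 10.3 times in KO.

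Among the receptors, Egfr lies on the plus strand of chromosome 11 of mm9, from 16652206 to 16813910 in both tables (NCBI gene 13649). In the GENCODE annotation of the same assembly it has 6 transcripts, 4 of them protein-coding, and its longest one has 28 exons and ends 4251 bases beyond the deposited row. An estimated 2340 fragments in WT and 1431 in KO lay behind the Egfr values. As they were taken from this longest transcript, they may be too many and the interval too narrow. Since FPKM was summed over the gene, the full-length receptor cannot be told apart from its shorter transcripts. When the shortest coding transcript was taken instead, which leaves 68 and 42 fragments, the interval was 0.394 to 0.885 and still left out 1. No row of another gene overlapped that of Egfr. In the order of all ratios, Egfr lay at the percentile 4.51, among the lower values.

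Erbb2, the partner of the other receptors, was at 4.32 FPKM (WT) and 4.62 FPKM (KO), and the interval of their ratio of 1.07 ran from 0.88 to 1.3. It lies on chromosome 11 from 98273798 to 98299030, and its row shares 9 bases with that of Mien1, which was at 50.14 FPKM (WT) and 50.03 FPKM (KO). With overlapping rows summed, the ratio was 1.00, but this mostly gives the ratio of Mien1, whose level is far higher, and is no check of Erbb2. Egfr was thus at 5.66 times the level of Erbb2 in WT and at 3.14 times in KO. Erbb3 and Erbb4, the receptors of neuregulins, stayed under 1 FPKM and were not counted among changed genes. Erbb3 lies on chromosome 10 from 128006424 to 128026557 and Erbb4 on chromosome 1 from 68086540 to 69154633. Erbb3 was at 0.218 FPKM (WT) and 0.371 FPKM (KO), which rested on about 12 and 21 fragments. Its ratio of 1.70 had an interval from 0.8 to 3.8. Erbb4 was at 0.192 FPKM (WT) and 0.374 FPKM (KO), a ratio of 1.95 from an estimated 22 and 44 fragments. Its interval of 1.14 to 3.41 left out 1 with the longest transcript, and with the shortest coding transcript (4 and 7 fragments) it was 0.495 to 9.07. The annotated gene reaches to 68078760, beyond the deposited row, so the longest transcript may give too many fragments and too narrow an interval. The summed FPKM of the 4 receptors was 29.1 in WT and 19.9 in KO, and without Egfr it was 4.73 and 5.37.

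**Figure D2:**
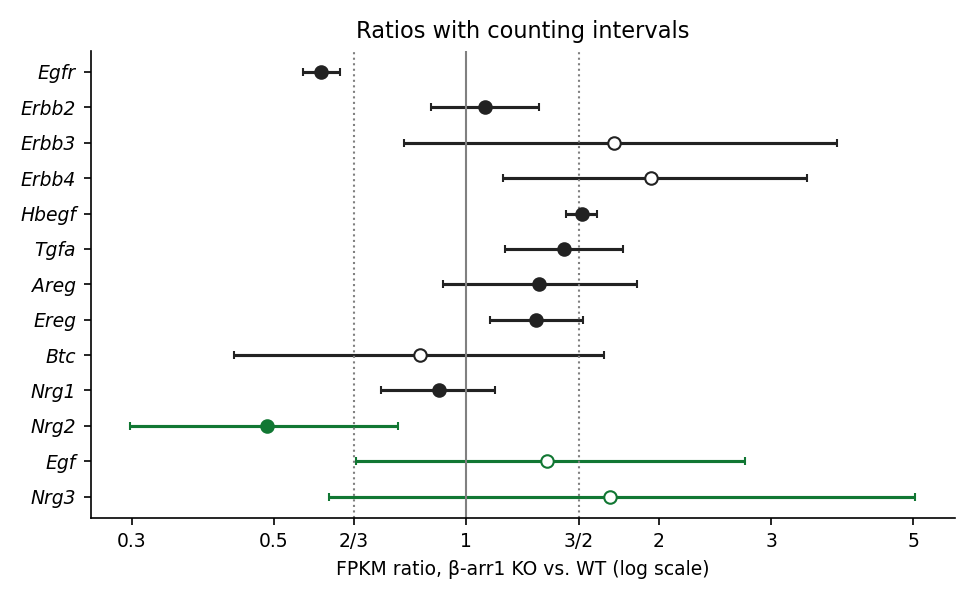
Ratio of FPKM, β-arr1 KO vs. WT, on a log scale, for the 10 genes (black) and 3 further ligands of the family (green). Bars are 95% counting intervals, open circles are genes under 1 FPKM in both libraries, and dotted lines mark 2/3 and 3/2. Egfr (0.593) and Nrg2 (0.488) lie left of 2/3, and Hbegf (1.51) lies just right of 3/2.

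Of the 5 ligands of EGFR, Hbegf alone passed 3/2. The ratios of Tgfa, Areg and Ereg were above 1 and within the limits. Of the 12171 genes at 1 FPKM listed in both tables, 6459 had a ratio above 1. In the order of these 12171 ratios, Hbegf lay at the percentile 92.4, Tgfa at 90.1, Areg at 85.6 and Ereg at 84.9. Btc stayed below 1 FPKM. Hbegf lies on the minus strand of chromosome 18 from 36664581 to 36675459 in both tables, and its single annotated transcript has 6 exons. An estimated 2071 fragments in WT and 3232 in KO lay behind its values. Tgfa, which encodes TGFα and lies on chromosome 6 from 86145245 to 86225443, was at 4.39 FPKM (WT) and 6.23 FPKM (KO), with a KO/WT ratio of 1.42 (interval, 1.15 to 1.76). Ereg, the gene of epiregulin, was at 6.82 FPKM (WT) and 8.77 FPKM (KO), and its ratio of 1.29 had an interval of 1.09 to 1.52. Areg, the gene of amphiregulin, had a similar ratio of 1.30 at 6.12 FPKM (WT) and 7.96 FPKM (KO). As Areg has a short transcript and an estimated 60 and 81 fragments, its interval of 0.920 to 1.85 included 1. Betacellulin (Btc) was at 0.889 FPKM (WT) and 0.753 FPKM (KO), and its interval of 0.434 to 1.64 included 1. The summed FPKM of the 5 EGFR ligands was 117 in WT and 173 in KO, a ratio of 1.48, and without Hbegf the sums were 18.2 and 23.7, a ratio of 1.30. With a pseudocount of 1 FPKM the ratios were lower but kept their direction, at 1.34 for Tgfa, 1.26 for Areg and 1.25 for Ereg.

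Nrg1, which encodes the ErbB3 and ErbB4 ligand neuregulin 1, was the third most abundant of the 10 genes. Its level was 10.8 FPKM (WT) and 9.77 FPKM (KO), with a KO/WT ratio of 0.905 (interval, 0.737 to 1.11), and no difference was detectable at this depth. The Nrg1 row ran from 32928385 to 33119962 on chromosome 8 in WT and from 32928439 to 33120284 in KO. Nrg1 was the only one of the 10 genes whose bounds differed between the tables, and the interval takes no account of this. Of the 7 analysed members, the interval lay above 1 for 3 (Hbegf, Tgfa and Ereg) and below 1 for 1 (Egfr). Among the 11841 genes at 1 FPKM with an interval, 40.9% had one that left out 1, and 13% were past the limits as well. The median log2 ratio of the 7 members was 0.36, beside 0.02 over the 12171 genes at this level that were listed in both tables. Both values describe these 2 libraries only.

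**Figure D3:**
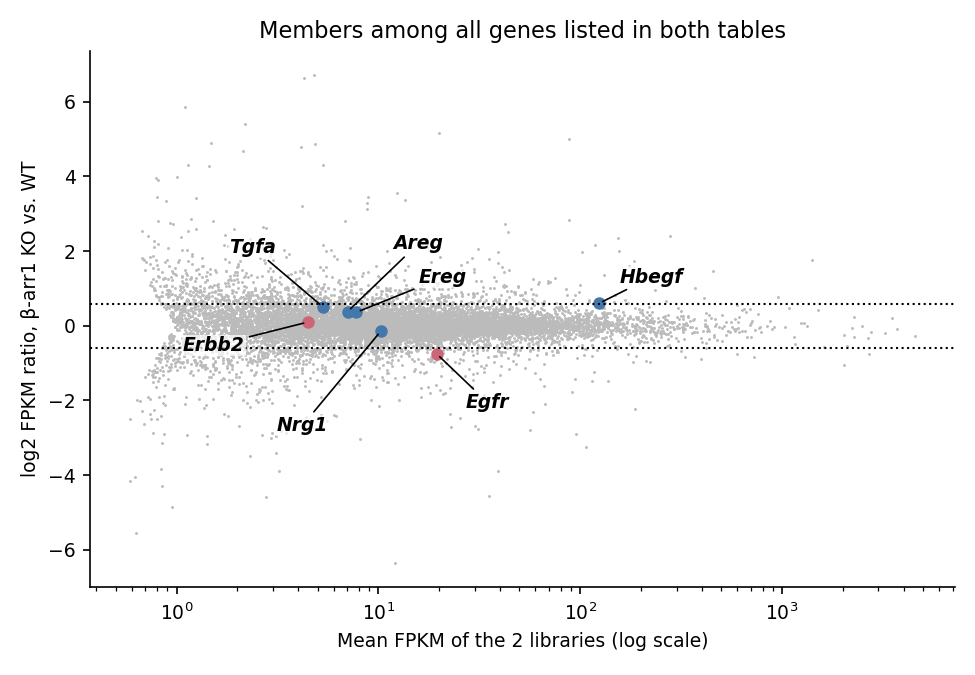
Log2 of the FPKM ratio, β-arr1 KO vs. WT, against the mean FPKM of the 2 libraries on a log scale, for the genes listed in both tables with at least 1 FPKM in one of them (grey). Receptor genes are red, ligand genes blue, and dotted lines mark the limits of 2/3 and 3/2. Egfr lies below the lower line at a log2 ratio of -0.75, and Hbegf on the upper line at 0.60.

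Of the further ligands of the family, Nrg2 (neuregulin 2) was at 2.04 FPKM (WT) and 0.996 FPKM (KO), with a KO/WT ratio of 0.488 (interval, 0.298 to 0.783). An estimated 55 and 28 fragments lay behind these values, the bounds of its row differed between the tables, and with the shortest coding transcript the interval was 0.167 to 1.29. Egf itself was low, at 0.365 FPKM (WT) and 0.489 FPKM (KO), and so was Nrg3, at 0.193 FPKM and 0.325 FPKM, and both intervals included 1. Epgn, the gene of epigen, was listed in WT only, at 0.0683 FPKM, which corresponds to 1 fragment. Nrg4 was not analysed here. Epgn, Ereg, Areg and Btc follow each other on chromosome 5 within 375478 bases. The rows run from 91503643 to 91522675 for Ereg, from 91568641 to 91577458 for Areg and from 91786287 to 91832020 for Btc. The gap between the Ereg and Areg rows is 45965 bases, and the gap between the Areg and Btc rows is 208828 bases. Ereg and Areg had ratios of 1.29 and 1.30, whereas Btc had a ratio of 0.847 at a level near 1 FPKM. The genes on either side of the group differed too, since Mthfd2l was at 5.75 FPKM (WT) and 8.87 FPKM (KO) (ratio 1.54) and Parm1 at 45.6 FPKM and 39.3 FPKM (ratio 0.861).

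The sequences before the start of transcription are shown for Egfr, which was below 2/3, and for 2 ligand genes within the limits, Areg and Tgfa, since the study asked about β-arr1 as a cofactor of transcription. RefSeq promoter windows (GRCm38.p6) were held for 6 of the 10 genes, and each matched mm9 exactly at 1 place. The last 120 bases before the start are printed 5′ to 3′ along the gene, and capitals mark a match to one of 4 motifs on either strand, the cAMP response element (CRE) TGACGTCA, the AP-1 site TGACTCA, the GC box GGGCGG and the TATA box TATAAA. The window of Egfr is chr11:16652086-16652205, that of Areg chr5:91568505-91568624 and that of Tgfa chr6:86145096-86145215, all on the plus strand.
Egfr: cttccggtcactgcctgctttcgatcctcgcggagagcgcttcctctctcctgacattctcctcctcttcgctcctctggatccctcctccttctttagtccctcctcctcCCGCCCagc
Areg: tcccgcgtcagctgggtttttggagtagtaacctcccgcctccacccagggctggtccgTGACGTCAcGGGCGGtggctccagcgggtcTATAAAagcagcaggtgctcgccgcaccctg
Tgfa: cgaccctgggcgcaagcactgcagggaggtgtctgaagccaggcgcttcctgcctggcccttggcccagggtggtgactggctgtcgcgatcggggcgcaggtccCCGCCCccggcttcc

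In the 250 bases before the start, Areg held a CRE that begins 61 bases before it, a GC box at 52 bases and a TATA box at 31 bases. Egfr held 1 GC box, at 9 bases before the start, and no TATA box or CRE in these letters. Tgfa held 2 GC boxes, at 126 and 15 bases. The windows of Erbb2, Erbb4 and Btc held none of the 4 motifs, and none of the 6 windows held the AP-1 site. Over 32851 promoter windows of the same length, 1.55% held the CRE, 4.46% the AP-1 site, 32.7% the GC box and 12.4% the TATA box. A match of letters does not show that a factor binds there, and the libraries hold no measure of binding.

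Other genes of the pathway were followed in lists by role. Of 69 analysed genes in 5 lists beside the 10 members, 4 were above 3/2 and 2 below 2/3, which is 8.70%, beside 17.8% of all genes. The 17.8% includes genes listed in 1 library only, of which the 69 hold none. Of the 69, those above 3/2 were Socs4, Spry2, Egr3 and Fosb, and those below 2/3 were Nrg2 and Sh3kbp1. Egr3 and Fosb fell outside the rule for named genes and are given because they complete this count. With 1 FPKM required in both libraries, Nrg2 (0.996 FPKM in KO) and Fosb (0.813 FPKM in WT) dropped out. This left 4 of at most 69 list genes past the limits, beside 11.8% of all genes.

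All 12 analysed genes for the processing and shedding of ligands lay within the limits, with ratios from 0.745 (Rhbdf2) to 1.25. Their intervals lay above 1 for 2 genes and below 1 for 6. Adam17, the main sheddase of several EGFR ligands, was at 19.4 FPKM (WT) and 18.4 FPKM (KO), a ratio of 0.944. Adam10, which releases EGF and betacellulin, was at 43.0 FPKM (WT) and 46.9 FPKM (KO). The highest gene of this list, Timp3, an inhibitor of ADAM17, was at 488 FPKM (WT) and 379 FPKM (KO), a ratio of 0.777. Nrd1, whose product nardilysin promotes the shedding of HB-EGF, was at 41.8 FPKM (WT) and 52.2 FPKM (KO), a ratio of 1.25. All 17 analysed adaptor and proximal signalling genes lay within the limits as well, from 0.807 to 1.19. Crk, the highest of them on the mean of both libraries, was at 57.6 FPKM (WT) and 62.6 FPKM (KO), and the adaptor Grb2 was at 28.9 FPKM and 27.5 FPKM. Adam17, Adam10, Nrd1, Rhbdf2 and Grb2 were named after their values were seen.

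Among 19 negative regulators and trafficking genes of ErbB receptors, 1 was above and 1 below the limits. Sh3kbp1, which encodes CIN85, a partner of the ubiquitin ligase Cbl in the uptake of EGFR, was at 23.7 FPKM (WT) and 12.4 FPKM (KO), with a KO/WT ratio of 0.523 (interval, 0.481 to 0.568). Socs4, a suppressor of cytokine signalling that acts on EGFR, was at 5.28 FPKM (WT) and 8.76 FPKM (KO), with a KO/WT ratio of 1.66 (interval, 1.45 to 1.90). Its row overlaps that of Wdhd1, which was at 2.95 FPKM (WT) and 1.92 FPKM (KO). Errfi1, an inhibitor of the EGFR kinase, was the highest of the list on the mean of both libraries and stayed within the limits, at 32.3 FPKM (WT) and 44.3 FPKM (KO) (ratio 1.37; interval, 1.26 to 1.5). Lrig1, which promotes the breakdown of ErbB receptors, was at 15.4 FPKM (WT) and 22.2 FPKM (KO), a ratio of 1.44. The ligase genes Cbl and Cblb had ratios of 1.06 and 1.24. Lrig1, Cbl and Cblb were chosen after their values were seen. The median log2 ratio of this list was 0.03.

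Most genes known to respond to ERK signalling had a ratio above 1, but they did not all move one way. Of 20 such genes, 15 had a ratio above 1 and 5 below 1, beside 6459 above 1 among the 12171 genes listed in both tables. With 3 genes above 3/2 and 0 below 2/3, beside 9.56% and 8.28% of all genes, their median log2 ratio was 0.26. Spry2, a feedback inhibitor of receptor tyrosine kinase signalling, was at 15.9 FPKM (WT) and 24.6 FPKM (KO), with a KO/WT ratio of 1.54 (interval, 1.33 to 1.79). Egr3 and Fosb, both immediate early transcription factors, stayed under 2 FPKM in each library, with ratios of 1.56 and 1.82. The Egr3 ratio rested on about 13 (WT) and 21 (KO) fragments, and its interval of 0.747 to 3.4 included 1. The bounds of the Egr3 row also differed between the tables. For Fosb the interval was 1.13 to 2.99. Dusp1, a phosphatase of MAP kinases, was the highest of the list, at 93.2 FPKM (WT) and 118 FPKM (KO) (ratio 1.27). Dusp6, the phosphatase that acts on ERK, had a ratio of 1.38, and the ETS factor gene Etv5 one of 1.35. On the other side, Fos was at 14.6 FPKM (WT) and 12.5 FPKM (KO), Egr1 at 16.3 FPKM and 13.0 FPKM, and Fosl1 at 18.8 FPKM and 14.1 FPKM. The intervals lay above 1 for 9 genes of the list and below 1 for 3, Egr1, Fosl1 and Myc. Dusp6, Etv5, Fos, Egr1, Fosl1 and Myc were named after their values were seen.

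**Figure D4:**
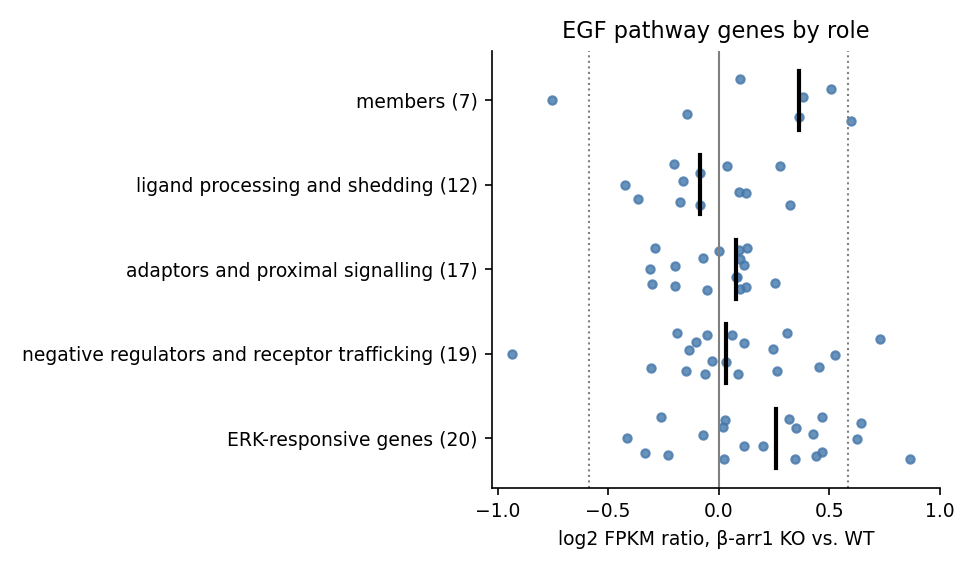
Log2 of the FPKM ratio, β-arr1 KO vs. WT, for genes with at least 1 FPKM in one library, by role, with the number of genes in brackets. Each point is a gene, black bars are medians, and dotted lines mark 2/3 and 3/2. The points of the shedding and adaptor lists stay between the dotted lines, and the median of the ERK-responsive genes is 0.26.

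Markers of other cell types were listed in both cultures, and the sums of several lists differed between them. The 5 fibroblast markers summed to 608 FPKM (WT) and 316 FPKM (KO), and all 4 that were analysed were below 2/3. Lum was listed in WT only, at 0.660 FPKM, about 12 fragments. Col1a1, a fibrillar collagen, was the highest, at 421 FPKM (WT) and 237 FPKM (KO). The 7 epithelium and choroid plexus markers summed to 79.4 FPKM (WT) and 14.3 FPKM (KO), with all 3 analysed below 2/3, and the highest, Folr1, was at 53.2 FPKM and 13.6 FPKM. Ttr, which defines choroid plexus, was at 23.8 FPKM (WT) and 0.290 FPKM (KO). Epcam was listed in KO only, at 0.162 FPKM, about 3 fragments. The part of these cells in the lower Egfr value was not tested, and in bulk samples fewer cells of a type and less RNA per cell cannot be told apart.

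The 10 microglia and macrophage markers summed to 923 FPKM (WT) and 740 FPKM (KO), with C1qa highest at 246 FPKM and 181 FPKM, 9 of 10 ratios below 1 and 1 of 10 below 2/3. The part of these cells in the Hbegf value was not tested. The 8 endothelial and pericyte markers summed to 50.7 FPKM (WT) and 39.2 FPKM (KO), with 2 above and 2 below the limits, and Cdh5 was highest at 31.8 FPKM and 16.1 FPKM. The 11 oligodendrocyte lineage markers summed to 107 FPKM (WT) and 153 FPKM (KO), with 4 of 8 analysed above 3/2. Olig1 was the highest of them at 32.6 FPKM (WT) and 56.0 FPKM (KO), and Sox10 was at 0.907 FPKM and 1.82 FPKM. Mog was listed in KO only, at 0.0663 FPKM, about 1 fragment. Erbb3 and Erbb4 had ratios above 1 as well, and the part of these cells, whose progenitors the shaking was meant to remove, was not tested. Ttr and Sox10 were named after their values were seen. The 6 neural stem and progenitor cell markers summed to 149 FPKM (WT) and 197 FPKM (KO), with Nes highest at 121 FPKM and 153 FPKM. Dcx was listed in KO only, at 0.0348 FPKM, about 3 fragments, which is too few to tell the libraries apart. The 5 Schwann cell markers summed to 9.38 FPKM (WT) and 8.39 FPKM (KO), with Prx highest on average, at 3.79 FPKM and 4.11 FPKM. Foxd3 was listed in WT only, at 0.0476 FPKM, about 1 fragment. Of the 9 neuron markers, 2 reached 1 FPKM, Tubb3 at 44.7 FPKM (WT) and 59.8 FPKM (KO), and Stmn2 at 36.6 FPKM and 43.4 FPKM. Gad2 was listed in KO only, at 0.0187 FPKM, about 1 fragment. The 10 astrocyte markers summed to 396 FPKM (WT) and 420 FPKM (KO), with 4 above 3/2 and none below 2/3. Gfap, with a ratio of 1.02, was the highest of them, and 8 of the 10 ratios were above 1 (median log2 ratio, 0.34).

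**Figure D5:**
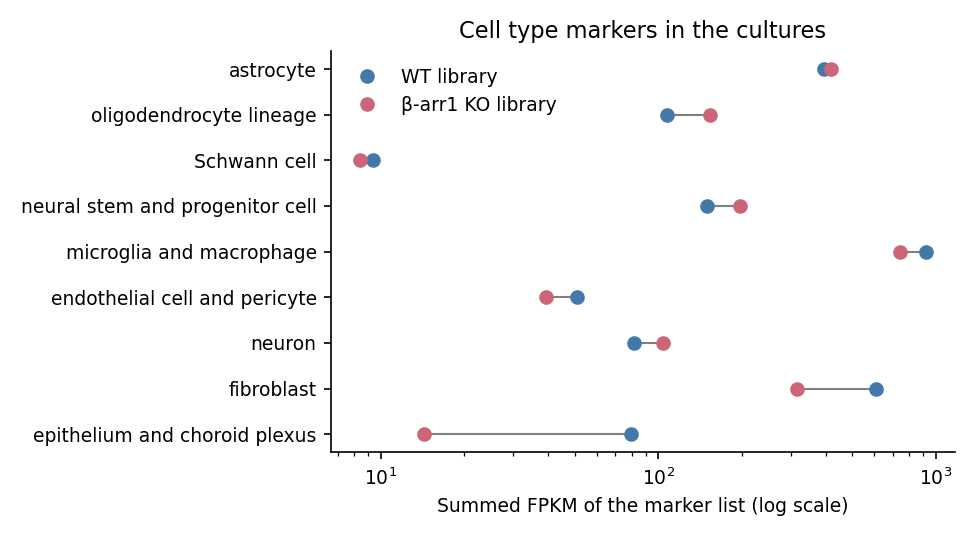
Summed FPKM of each cell type marker list in the WT library (blue) and the β-arr1 KO library (red), on a log scale. The astrocyte sums are close (396 and 420 FPKM), although 4 of the 10 astrocyte markers were above 3/2. The fibroblast (608 and 316 FPKM) and epithelium and choroid plexus (79.4 and 14.3 FPKM) sums are lower in KO.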

How the data were processed

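RNA sequencing was analysed for 1 WT and 1 β-arr1 KO library, grouped by the genotype in the labels. Per the labels and the methods, the authors aligned read pairs to mm9 with TopHat 1.4.0, estimated expression with Cufflinks (version and annotation not given in the sources used here) and deposited FPKM values, above 0 only, for each gene. Counts and confidence bounds are not in the columns used here.

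The tables were joined by symbol, taking the highest row where rows shared one, and rows without a symbol were left out. Where just 1 table listed a gene, 0 was taken for the other library, and the gene counted as changed. Ratios of KO vs. WT used no pseudocount. Starts were raised by 1. Mapped fragments were estimated from genes under 0.15 FPKM with 1 GENCODE transcript over 1000 bases, where 69.5% of 416 genes (WT) and 69.7% of 435 genes (KO) lay within 5% of 1, 2 or 3 fragments, with 170 bases taken off the length. Fragments per gene used the longest transcript. Intervals are exact, Clopper-Pearson for ratios (centred on the FPKM ratio) and Poisson for levels, at 95%. A shorter expressed transcript would widen them.

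The 10 members, the limits and the gene lists were chosen with earlier results of these data known. Named genes were all members, the other ligands of the family, in each pathway list up to 4 past the limits whose higher value reached 5 FPKM and lower value 1 FPKM, and the highest gene, in each marker list the highest gene and genes listed in one table only, Arrb1, and genes overlapping a member. No gene was named for a pattern like that of a member, since 2 libraries give 1 ratio. Alternatives varied the minimum level, pseudocount, scaling, row handling, limits and transcript length. The computation was tested on simulated data. Bace1, Grb7, Gpr17, Pdgfrb, Map2 and Nrg4 were not analysed here. Computation was in Python 3.11.15 (scipy 1.17.1, numpy 2.4.6, pandas 2.3.3), and matplotlib 3.10.9 drew the figures.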

Additional observations from a re-analysis of the deposited data

How the results depend on the processing

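Egfr stayed below 2/3 at 0.586 to 0.610 in 12 of 13 alternatives and was within the wider limits of 2 and 1/2, and no ratio of a member changed direction. Hbegf lay within 3/2 once the libraries were rescaled, by their median ratio (1.495) or by their upper quartile (1.496), but not by their FPKM total (1.519). The number of members past the limits was 2. A lower minimum, of 0.1 FPKM or none, gave 4, when Erbb3 and Erbb4 passed 3/2. Rescaling by the median ratio or by the upper quartile gave 1, and by the FPKM total 2, and there were 0 with limits of 2 and 1/2. The 6 changed genes of the other pathway lists became 3 with a minimum of 5 FPKM, 3 among genes with equal bounds in both tables and 1 with limits of 2 and 1/2. Over all genes, the 2256 changed genes became 3969 with a minimum of 0.1 FPKM, 1179 with 5 FPKM, 1372 with 1 FPKM in both libraries, 1015 with equal bounds and 1163 with limits of 2 and 1/2. The median log2 ratio of the members lay between 0.32 and 0.37 throughout. With the shortest coding transcripts, 4 members had an interval that left out 1, as with the longest. No paired analysis was possible because each genotype has 1 library, and for the same reason no library could be left out. At this depth genes near 1 FPKM or below have wide intervals.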
